A study of Mus musculus with 8 samples.

Results

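Amacrine cells, the interneurons of the inner retina, are told apart by the peptides and fast transmitters they release. The expression of 10 genes that label their main classes was described here, of the 19938 genes that the array annotation gives a probe set of their own. They are 5 peptide precursors (*Sst*, *Npy*, *Vip*, *Tac1* and *Penk*), 4 transmitter enzymes (*Gad1*, *Gad2*, *Th* and *Chat*) and 1 transporter (*Slc6a9*). Each was read by a single probe set.

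The arrays were Affymetrix Mouse Gene 1.0 ST arrays, which read whole transcripts in total RNA. Hyperoxia inferior and hyperoxia superior samples came from the lower and upper parts of divided retinas of C57BL/6J mice kept in constant 75% O2 for 14 days, starting at postnatal day 83 to 90. Control inferior and control superior samples were the same parts from C57BL/6J mice of matching age under normoxia. All mice were raised in 12 h of 5 lux light alternating with darkness, and each group had 2 arrays, each hybridized with a pool of tissue from a male and a female. Inferior retina was compared with superior retina because its photoreceptors are known to be the more vulnerable to hyperoxia in this strain.

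Nearly all amacrine cells use either GABA, made by the glutamate decarboxylases that *Gad1* and *Gad2* encode, or glycine, which glycinergic amacrine cells take up through GLYT1, the product of *Slc6a9*. Smaller classes release a further transmitter: starburst cells make acetylcholine with choline acetyltransferase (*Chat*), and dopaminergic cells make dopamine with tyrosine hydroxylase (*Th*), its rate-limiting enzyme. Peptides such as somatostatin, neuropeptide Y, vasoactive intestinal peptide, substance P and the enkephalins are stored in wide-field and other sparse amacrine classes and act on receptors spread through the inner retina.

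Many peptide genes are known to respond to cyclic AMP through a short promoter element bound by CREB. The sequences below are the 250 bases before the transcription start of the 3 peptide genes whose differences came nearest to the test's threshold, in mouse build GRCm38.p6 from RefSeq, 5′ to 3′ on the gene's strand. Capitals mark TGACG, the core of that element, or its reverse complement CGTCA, and a palindrome TGACGTCA holds both, overlapping. *Sst* lies on the minus strand at chr16:23890845-23891094, *Vip* on the plus strand at chr10:5638968-5639217 and *Tac1* on the plus strand at chr6:7554811-7555060.
Sst: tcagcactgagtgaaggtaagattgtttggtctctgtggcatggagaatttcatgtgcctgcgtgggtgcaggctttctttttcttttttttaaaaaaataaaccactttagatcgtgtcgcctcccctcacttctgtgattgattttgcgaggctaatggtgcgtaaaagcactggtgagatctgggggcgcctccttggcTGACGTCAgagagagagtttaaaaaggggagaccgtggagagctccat
Vip: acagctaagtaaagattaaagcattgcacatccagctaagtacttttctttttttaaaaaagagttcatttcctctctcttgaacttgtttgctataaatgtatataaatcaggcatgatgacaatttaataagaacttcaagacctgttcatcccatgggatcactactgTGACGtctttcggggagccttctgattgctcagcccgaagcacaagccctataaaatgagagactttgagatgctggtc
Tac1: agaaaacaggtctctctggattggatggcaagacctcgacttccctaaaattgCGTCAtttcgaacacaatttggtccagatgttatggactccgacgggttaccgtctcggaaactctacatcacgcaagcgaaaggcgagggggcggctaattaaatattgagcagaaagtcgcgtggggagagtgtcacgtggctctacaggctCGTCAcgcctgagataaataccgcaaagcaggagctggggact
In the *Sst* window the palindrome spanned positions -48 to -41 from the start, the *Vip* window held 1 core, and the *Tac1* window held 2 reverse complements. Of the 11 windows of 9 members, 7 held TGACG on either strand, while 17.8% of the 32851 windows of that length in the table did. *Th* also held the palindrome, which 1.55% of all windows contained. A window for *Penk* was not used here. A match is a description of letters and not a measured binding site.

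**Figure D1:**
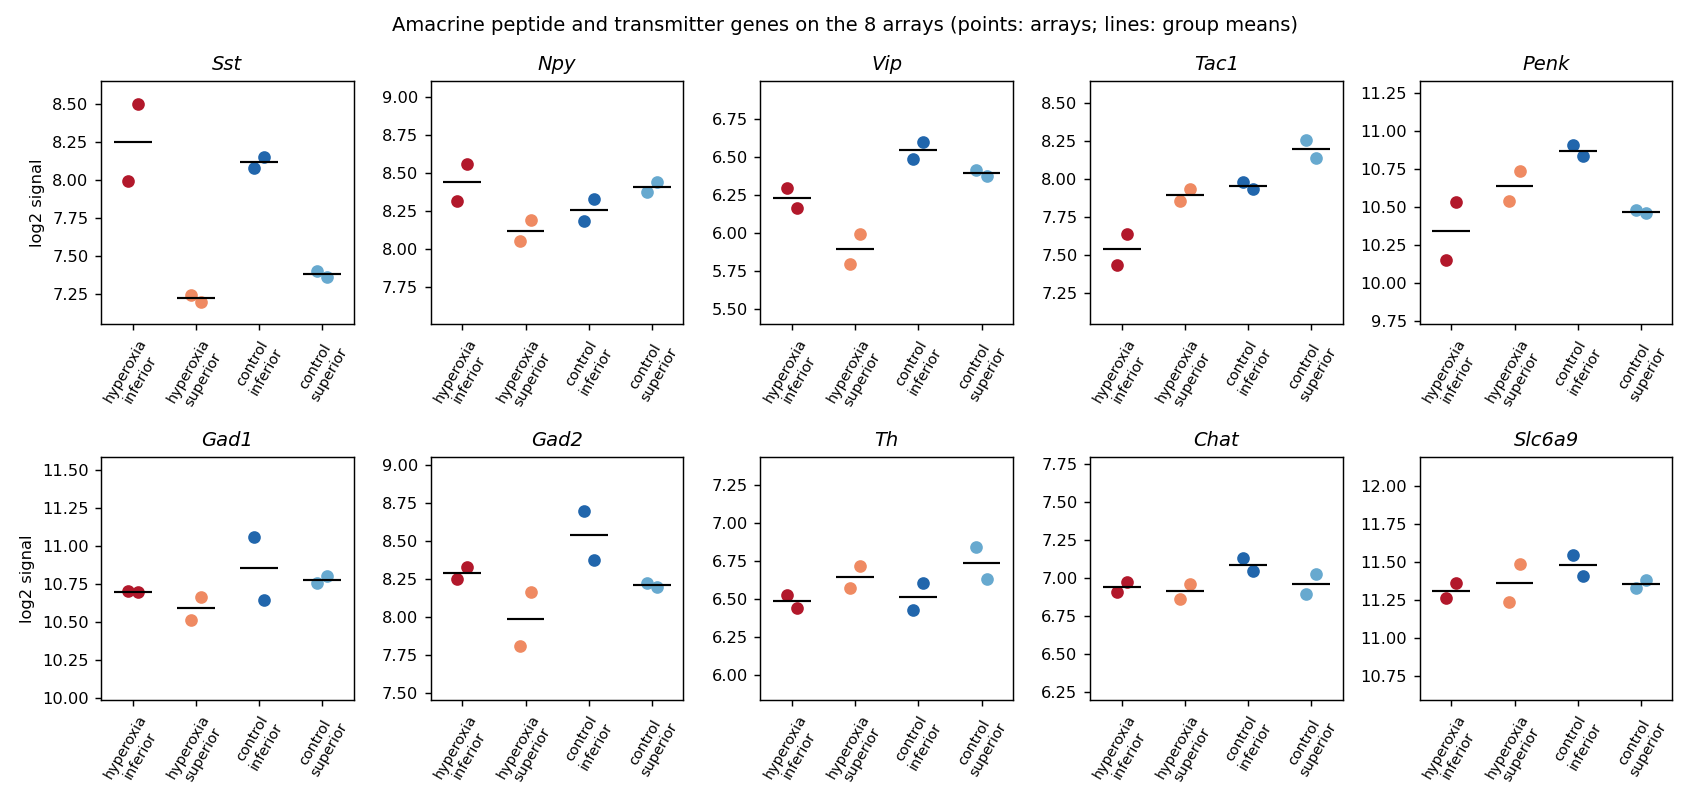
The 10 genes, 1 per panel, with the log2 signal on the vertical axis (same span in all panels) and the 4 groups along the horizontal axis. A point is an array and a line is the mean of a group. *Sst* separated inferior from superior arrays in both oxygen conditions, *Vip* separated hyperoxia from control arrays in both regions, and *Slc6a9* and *Chat* differed little.

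One array stood apart from the rest in lens genes. Lens crystallins and related lens genes (16 of 16 measured) summed to 1449 to 2443 linear signal units in hyperoxia inferior, 1626 to 2095 in hyperoxia superior, 1236 to 46478 in control inferior and 1410 to 3489 in control superior retina, and the highest sum was that of control inferior replicate 2. Microglial genes (14 of 14 measured) summed to 5262 to 5897 in hyperoxia inferior, 2738 to 2745 in hyperoxia superior, 1959 to 2011 in control inferior and 1787 to 1863 in control superior retina. Rod genes (10 of 12 measured) summed to 63212 to 72236 in hyperoxia inferior, 75133 to 76994 in hyperoxia superior, 73489 to 74528 in control inferior and 74992 to 77610 in control superior retina. Of genes listed as amacrine markers, 19 of 20 were measured, with mean log2 signals between 3.96 for *Neurod6* and 11.22 for *Calb2*. The list is not limited to genes of amacrine cells alone, and *Neurod6* and *Ptf1a* (4.97) read well below the array medians. No marker value was listed at 0, and the table holds no detection calls.

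No gene of the 10 passed the test (limma, Benjamini-Hochberg adjusted p under 0.05 over 28853 probe sets) in any of the 7 comparisons made. The values therefore describe differences between these arrays, of which the regional difference of *Sst* and the hyperoxia differences of *Vip* and *Tac1* came nearest to the threshold. In tissue of many cell types, fewer cells of a class and less RNA per cell cannot be told apart. Retinas were divided into their inferior and superior parts, so inferior and superior samples of a condition may share animals, and nothing in the sources ties a replicate number to particular animals. The tests treat the 8 arrays as separate samples, and if animals are shared the p-values averaged over regions may be too small. They rest on the spread between these pools alone, which may be technical.

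*Sst*, the somatostatin precursor, had the widest regional difference of the 10. In hyperoxia-exposed mice, its log2 signal was 7.99 and 8.50 in inferior retina and 7.24 and 7.20 in superior retina. In control mice it was 8.08 and 8.15 in inferior retina and 7.40 and 7.36 in superior retina. Every inferior array was above every superior array. Inferior retina was 2.04-fold higher in hyperoxia-exposed mice (log2 difference 1.03, SE 0.15, 95% interval 0.69 to 1.37, limma adjusted p = 0.0603) and 1.67-fold higher in control mice (0.74, SE 0.15, interval 0.40 to 1.08, adjusted p = 0.848). *Sst* is among the genes the study listed for their control difference on these same arrays, so that direction is not independent evidence.

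Averaged over oxygen conditions, *Sst* was higher in inferior retina by 0.88 on the log2 scale (SE 0.11, interval 0.64 to 1.12, limma adjusted p = 0.0533), and its unadjusted p of 2.18e-05 ranked 10 of 28853. An exact permutation test within oxygen conditions gave p = 0.0556 (two-sided), the smallest this design allows, so the test cannot pass 0.05. *Vip*, *Tac1*, *Gad2* and *Th* reached the same value between regions. Most of the 15 alternatives did not pass 0.05. The adjusted p was 0.0258 with arrays centred on their medians and 0.0161 with dim probe sets (mean log2 signal under 6) left out. Over all alternatives it lay between 0.0068 and 0.573. Within hyperoxia-exposed retina the adjusted p was 0.0489 without hyperoxia inferior replicate 1 and 0.192 without replicate 2 of that group. The regional difference of *Sst* was 0.29 larger after hyperoxia (SE 0.21, interval -0.19 to 0.77, adjusted p = 0.883), an interval that includes 0, and 0.037 larger without hyperoxia inferior replicate 2. Without control inferior replicate 2, the array with the lens signal, the control difference was 0.70.

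*Vip* also read higher in inferior retina. The arrays gave log2 signals of 6.29 and 6.17 in hyperoxia inferior retina and 5.80 and 5.99 in hyperoxia superior retina. They were 6.49 and 6.60 in control inferior retina and 6.42 and 6.37 in control superior retina. The regions did not overlap within either condition, with log2 differences of 0.34 (SE 0.10, limma adjusted p = 0.44) in hyperoxia-exposed retina and 0.15 (SE 0.10, adjusted p = 0.947) in control retina. These levels lie below the array medians of 6.98 to 7.05, where background takes a larger part of a signal.

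*Tac1*, which encodes the precursor of substance P and neurokinin A, ran the other way. Signals were 7.43 and 7.64 in hyperoxia inferior retina and 7.86 and 7.94 in hyperoxia superior retina on the log2 scale. They were 7.98 and 7.93 in control inferior retina and 8.26 and 8.14 in control superior retina. Both inferior pairs lay below their superior pairs, with log2 differences of -0.36 (SE 0.10, limma adjusted p = 0.391) after hyperoxia and -0.24 (SE 0.10, adjusted p = 0.93) in controls.

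*Penk*, the proenkephalin gene, had opposite regional orders in the oxygen conditions. It read 10.15 and 10.53 in hyperoxia inferior retina and 10.54 and 10.74 in hyperoxia superior retina (log2 signal). It was 10.91 and 10.83 in control inferior retina and 10.48 and 10.46 in control superior retina. Inferior retina was thus the lower region after hyperoxia (log2 difference -0.30, SE 0.13, limma adjusted p = 0.594) and the higher region in controls (0.40, SE 0.13, adjusted p = 0.909). In the hyperoxia-exposed pair the 2 nearest arrays, at 10.53 and 10.54, almost touched, and the *Penk* difference was -0.11 without hyperoxia inferior replicate 1.

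Neuropeptide Y (*Npy*) differed the opposite way in each condition. Log2 signals were 8.32 and 8.56 in hyperoxia inferior retina and 8.05 and 8.19 in hyperoxia superior retina. They were 8.18 and 8.33 in control inferior retina and 8.38 and 8.44 in control superior retina. Inferior retina was higher by 0.32 (SE 0.11, limma adjusted p = 0.516) after hyperoxia and lower by 0.15 in controls (log2 difference -0.15, SE 0.11, adjusted p = 0.951).

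Of the transmitter genes, *Gad2* was the one whose inferior arrays all lay above its superior arrays. *Gad2* read 8.25 and 8.33 in hyperoxia inferior retina and 7.81 and 8.16 in hyperoxia superior retina (log2 signal). It was 8.70 and 8.38 in control inferior retina and 8.22 and 8.20 in control superior retina. The averaged inferior minus superior difference was 0.32 (SE 0.10, limma adjusted p = 0.521), with a narrow gap between the lowest inferior array (8.25) and the highest superior array (8.22). *Gad1*, whose product makes much of the GABA of resting neurons, differed by 0.11 in hyperoxia-exposed and 0.07 in control retina (SE 0.13 each), both less than 1 SE. *Th* was lower in inferior retina by 0.16 and 0.22 (log2 differences -0.16 and -0.22, SE 0.11 each), without overlap in hyperoxia-exposed or control retina, at signals of 6.43 to 6.84. *Chat* (6.86 to 7.13) and *Slc6a9* (11.24 to 11.55) differed between regions by 0.13 or less in either condition, with 95% intervals that include 0.

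Counted together, 0 of the 10 passed the adjusted threshold between regions, where 0.125% of all probe sets passed as higher and 0.0139% as lower in hyperoxia-exposed inferior retina, 0% each way in control inferior retina, and 0.0104% and 0.00693% on average. At an unadjusted p under 0.05 in limma, 3 genes were higher and 1 lower in inferior retina after hyperoxia (4.25% of all probe sets each way), and again 3 higher and 1 lower in controls (2.49% and 2.81%). On average 3 were higher and 2 lower (3.67% and 4.20%). Without regard to size, 5 were higher and 3 lower with no overlap after hyperoxia (20.0% and 18.5%), 6 and 3 in controls (17.5% and 16.7%), and 2 and 0 over both conditions (1.69% and 1.85%), namely *Sst* and *Gad2*. The methods' t-test, with an adjustment that the methods do not mention, called 0 of the 10. It called 0 of all probe sets between regions after hyperoxia and on average, so its result says little about the 10.

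**Figure D2:**
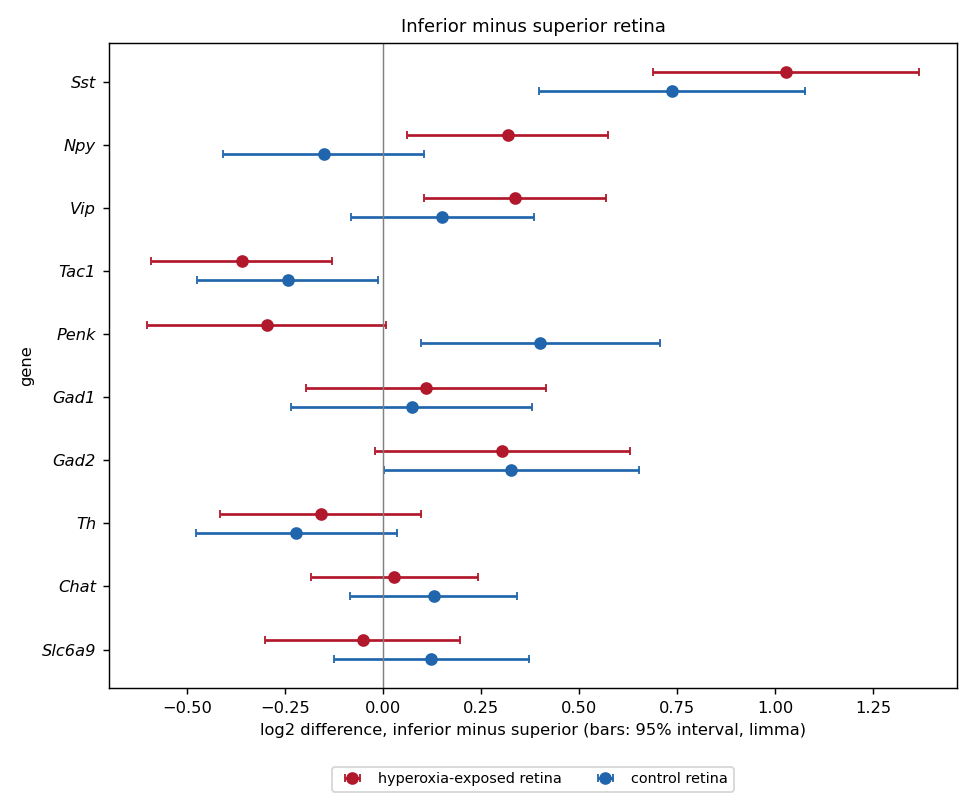
Inferior minus superior log2 difference of the 10 genes (horizontal axis, log2 units) in hyperoxia-exposed and control retina; points are limma estimates from 2 arrays a group and bars are 95% intervals. *Sst* lay furthest to the right in both conditions (1.03 and 0.74), *Tac1* lay left of 0 in both, and the estimates of *Penk* in hyperoxia-exposed and control retina lay on opposite sides of 0.

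Hyperoxia was compared with control within each region. *Vip* had the largest difference averaged over regions, and its hyperoxia arrays (5.80 to 6.29) all lay below its control arrays (6.37 to 6.60). It was lower by 0.32 in inferior retina (log2 difference -0.32, SE 0.10, limma adjusted p = 0.344) and by 0.50 in superior retina (-0.50, SE 0.10, adjusted p = 0.448). On average the difference was -0.41, or 0.754-fold (interval -0.57 to -0.24, adjusted p = 0.0587, exact permutation p = 0.0556, the smallest possible). *Tac1* and *Gad2* reached the same permutation p. The adjusted p of *Vip* was 0.0215 with dim probe sets left out and 0.0372 among probe sets with 1 symbol. These were the only 2 of 15 alternatives that passed, and over all of them the adjusted p lay between 0.0215 and 0.316.

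*Tac1* was likewise lower after hyperoxia in both regions, without overlap in either. The inferior difference was -0.42 (SE 0.10, limma adjusted p = 0.163) and the superior difference -0.30 (SE 0.10, adjusted p = 0.796). Averaged over regions it was -0.36, or 0.779-fold (SE 0.07, adjusted p = 0.0933). The adjusted p was 0.0361 when dim probe sets were left out and 0.0392 when the prior variance could vary with the mean signal (a variance trend). These were the only 2 of 15 alternatives that passed, and the others reached up to 0.337. The lowest *Tac1* arrays were both hyperoxia inferior, and the highest were both control superior.

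*Penk* differed by -0.53 in inferior retina (0.692-fold, SE 0.13, limma adjusted p = 0.181) and by 0.17 in superior retina (1.12-fold, SE 0.13, adjusted p = 0.93). The superior 95% interval, -0.14 to 0.47, includes 0. The fold margin, the inferior fold ratio minus the superior one, was -0.431. Its interaction, the inferior minus the superior log2 change, was -0.70 (SE 0.19, interval -1.13 to -0.27, adjusted p = 0.673). Every hyperoxia array was below every control array in inferior retina and above every control array in superior retina, although the interaction did not pass the test.

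*Npy* had an interaction of the other sign. Hyperoxia minus control was 0.18 in inferior retina (SE 0.11, limma adjusted p = 0.675) and -0.29 in superior retina (SE 0.11, adjusted p = 0.863). Its interaction was 0.47 (SE 0.16, adjusted p = 0.788). Only the superior arrays were free of overlap, with hyperoxia below control. For *Sst* the changes were 0.13 (SE 0.15) in inferior and -0.16 (SE 0.15) in superior retina, both with 95% intervals that include 0. Leaving out hyperoxia inferior replicate 2 turned the inferior *Sst* change to -0.12.

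Of the transmitter genes, *Gad2* had the largest hyperoxia difference averaged over regions (log2 difference -0.24), smaller than those of *Vip* and *Tac1*. Its hyperoxia arrays lay below its control arrays within each region, by narrow gaps. *Gad2* was lower after hyperoxia by 0.25 in inferior retina (log2 difference -0.25) and 0.23 in superior retina (-0.23, SE 0.14 each), with a limma adjusted p of 0.537 on average. The *Gad2* difference was -0.088 in inferior retina when replicate 1 of its control pair was left out. In superior retina it was -0.050 when replicate 1 of the hyperoxia-exposed pair was left out. *Gad1* differed by -0.15 and -0.19 (SE 0.13 each). *Gad1* signals were 10.71 and 10.70 in hyperoxia inferior retina, 10.52 and 10.67 in hyperoxia superior retina, 11.06 and 10.65 in control inferior retina, and 10.76 and 10.81 in control superior retina. The control inferior pair lay further apart than any of the group means of *Gad1*, and without its replicate 1 the inferior *Gad1* difference was 0.06. *Th* differed by -0.03 and -0.09, *Chat* by -0.15 and -0.05, and *Slc6a9* by -0.17 and 0.01, all with 95% intervals that include 0.

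**Figure D3:**
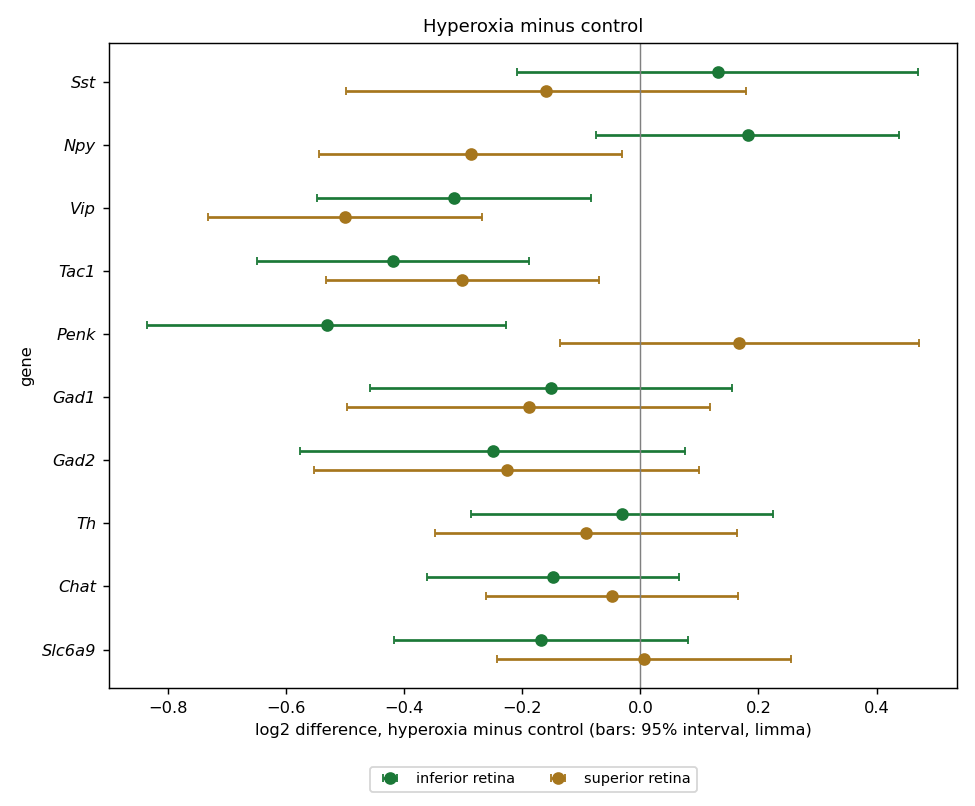
Hyperoxia minus control log2 difference of the 10 genes (horizontal axis, log2 units) in inferior and superior retina; points are limma estimates from 2 arrays a group and bars are 95% intervals. *Vip* and *Tac1* lay left of 0 in both regions, whereas *Penk* lay left in inferior retina (-0.53) and right in superior retina (0.17).

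Averaged over regions, hyperoxia minus control was below 0 for all 10 genes, with a median of -0.13 against 0.00 over all probe sets, of which 14005 of 28853 were below 0. The sign of *Sst* (-0.01) and *Npy* (-0.05) turned when hyperoxia inferior replicate 1 was left out. Within regions, 8 of 10 were below 0 in inferior retina (median -0.16) and 8 of 10 in superior retina (median -0.17). Listed amacrine markers had medians of -0.10 and -0.09 in these comparisons and ganglion cell markers -0.11 and -0.23. Medians were -0.04 and -0.15 for bipolar, -0.06 and -0.09 for horizontal, and 0.06 and -0.04 for Müller cell markers. The microglial sums given above were higher after hyperoxia in both regions, with all 14 genes above 0 and medians of 1.21 in inferior and 0.43 in superior retina, and the rod sums were lower in inferior retina. Their part in these values was not tested. Pigment epithelium genes (13 of 13 measured) summed to 10905 to 11467 in hyperoxia inferior, 11736 to 12614 in hyperoxia superior, 6607 to 11547 in control inferior and 4638 to 8083 in control superior retina, and their part was not tested either.

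Against control, 0 of the 10 passed the adjusted threshold, where 0.430% of all probe sets passed as higher and 0.0624% as lower in hyperoxia inferior retina, 0.0139% and 0.00347% in hyperoxia superior retina, and 0.447% and 0.121% on average. At an unadjusted p under 0.05 in limma, 0 were higher and 3 lower in inferior retina (4.96% and 4.43% of all probe sets), 0 and 3 in superior retina (3.43% and 2.16%), and 0 and 3 on average (4.96% and 4.02%). With no overlap between groups, 0 were higher and 6 lower in inferior retina (20.5% and 18.1%), 1 and 6 in superior retina (18.7% and 17.2%), and 0 and 1 over both regions (2.90% and 2.58%). For the interaction 0 passed after adjustment (0.00347% and 0%), while *Npy* was higher and *Penk* lower at the unadjusted threshold, 1 each way (3.02% and 3.03%). The methods' t-test with the same adjustment called 0 of the 10 in these comparisons, but it called almost no probe sets at all, so its result says little about the 10.

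Among the other genes of these pathways, *Glul* was the only one that passed. It encodes glutamine synthetase, the Müller cell enzyme that supplies glutamine for new glutamate and GABA. It read 12.35 and 12.54 in hyperoxia inferior retina and 13.18 and 13.12 in control inferior retina (log2 signal). In superior retina it was 12.74 and 12.98 after hyperoxia and 13.15 and 13.09 in controls. All hyperoxia arrays lay below all control arrays. *Glul* fell by 0.70 in inferior retina (limma adjusted p = 0.0416) and by 0.48 on average (adjusted p = 0.0436), calls that were lost under quantile normalization (adjusted p = 0.0503 and 0.0676) and by the methods' t-test (0.323 for each). Left out in turn, each inferior and each control superior array ended the inferior call (adjusted p 0.1 to 0.172), and each of the 8 arrays ended the averaged call (0.0758 to 0.185). *Glul* belongs to the GABA and glycine list, of which 15 of 19 genes were measured and 14 were below 0 on average (median -0.13).

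The transmitter partners otherwise gave 0 calls in limma. Of 11 measured dopamine genes the largest average hyperoxia difference was that of *Slc18a2*, the vesicular monoamine transporter, at -0.28 (SE 0.08, limma adjusted p = 0.263), and the list median was 0.01. Of 10 acetylcholine genes it was that of the muscarinic receptor *Chrm2*, at -0.32 (SE 0.10, adjusted p = 0.365), with a median of -0.12. At an unadjusted p under 0.05, 1 gene of each list was lower and 0 were higher, where 4.02% of all probe sets were lower and 4.96% higher.

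Receptors for the peptides were measured in 17 of 17 cases and gave 0 calls in limma in any comparison. The somatostatin receptor *Sstr3* was higher after hyperoxia by 0.30 on average (SE 0.10, adjusted p = 0.38), and *Tacr3*, the neurokinin B receptor, was higher in inferior retina by 0.26 (SE 0.08, adjusted p = 0.521), both without overlap. For *Sstr3* the lowest hyperoxia array (6.112) and the highest control array (6.110) almost touched. Its log2 signals, 5.58 to 6.33, lay below the array medians. Each was the 1 receptor of 17 that was higher at an unadjusted p under 0.05 in its comparison, near the 4.96% of all probe sets that were higher after hyperoxia and the 3.67% that were higher in inferior retina.

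*Mme* encodes neprilysin, which cleaves enkephalins and substance P, and its control difference was the largest among 14 measured genes of peptide processing and breakdown, of which limma called 0. Log2 signals were 5.57 and 5.80 in hyperoxia inferior retina and 5.57 and 5.55 in hyperoxia superior retina. They were 5.95 and 6.90 in control inferior retina and 5.33 and 5.25 in control superior retina. The control difference, inferior minus superior, was 1.14 (SE 0.25, limma adjusted p = 0.85), and it was 0.66 without control inferior replicate 2 and 1.61 (adjusted p = 0.00212) without control inferior replicate 1. The study listed *Mme* too for its control difference on these arrays, and the higher of its 2 control inferior values came from the array with the lens signal.

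**Figure D4:**
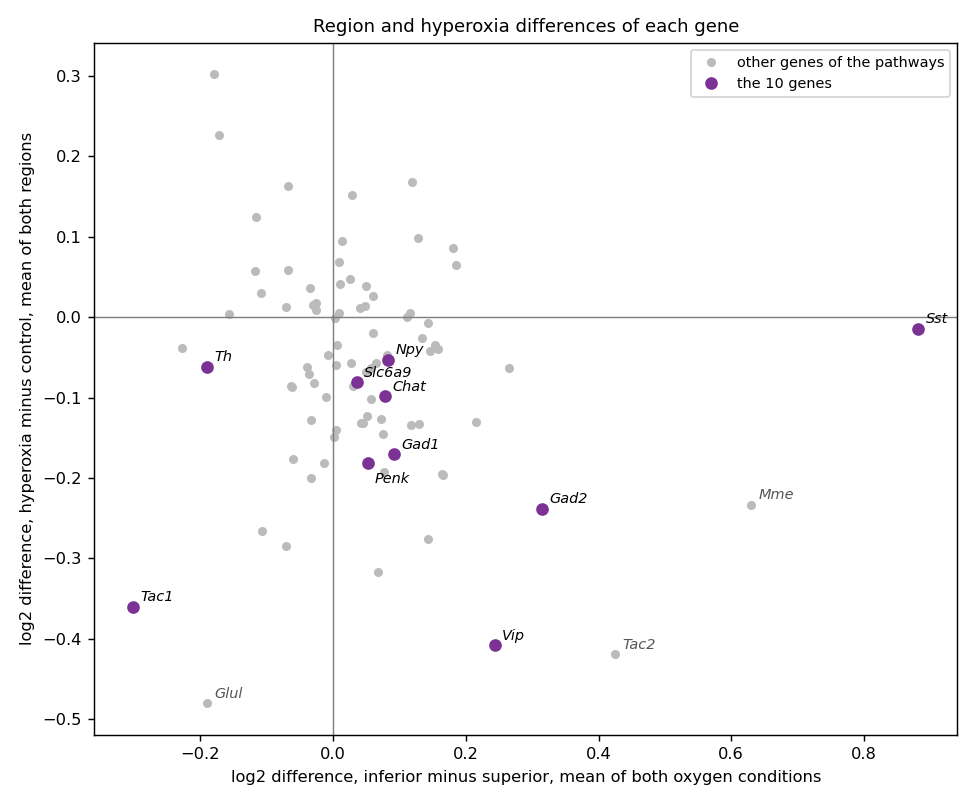
Inferior minus superior log2 difference averaged over oxygen conditions (horizontal axis) against hyperoxia minus control log2 difference averaged over regions (vertical axis), for the 10 genes and the other measured genes of their pathways; each point is 1 gene. *Sst* stood far to the right near 0 on the vertical axis (0.88 and -0.01), *Vip* and *Tac2* lay low on the right, *Tac1* and *Glul* low on the left.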

How the data were processed

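Retinal RNA of 8 samples was read on Mouse Gene 1.0 ST arrays, 1 per array. The authors processed the scans in Partek, corrected background by RMA, summarized probes by median polish, and the deposited values are log2 signals of 28853 probe sets. Whether quantile normalization was applied is not given in the sources used here. Array medians lay between 6.98 and 7.05. The number of arrays, 2 a group, limits the precision.

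Groups came from the sample titles. Probe sets were named through the platform annotation, in which 21789 have 1 symbol, 1621 have several and 5443 are not listed; a gene's probe set was the one with 1 symbol and the highest mean. A mean per group was fitted to all 8 arrays with limma 3.58.1 in R 4.3.3, which left 4 residual degrees of freedom, and p-values were adjusted over all probe sets (Benjamini-Hochberg). Exact permutation tests were two-sided and exchanged arrays only within a region or an oxygen condition. The procedure was tested on simulated data with independent arrays. For calls, that check required only that log2 differences of 2 be found, which are larger than those of the 10 genes. Smaller differences were also simulated, with no share required to be found. Passing the check therefore does not bear on the results of the 10 genes. Summed signals are sums of 2 to the power of the log2 values. The genes named are the 10 members, genes of the pathway lists that passed the test or differed most, partners of a member described, and the 3 genes most correlated with *Sst*; *Glul*, *Tac2* and *Mme* were chosen for array values after their results were seen. Members and lists were chosen with earlier results of these data known.

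Alternatives were quantile normalization, centring arrays on their medians, leaving out probe sets with a mean under 6, keeping probe sets with 1 symbol, a variance trend, the methods' t-test, the replicate number as a block and leaving out each array. Unassigned sample columns numbered 0.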

Additional observations from a re-analysis of the deposited data

Results flagged for a closer look

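*Penk* was flagged by a rule that asks for hyperoxia and control arrays apart in both regions, in opposite directions. Its hyperoxia arrays lay below the control arrays in inferior retina and above them in superior retina. Separation alone was seen for 18.1% of all probe sets as lower in inferior retina and 18.7% as higher in superior retina. The rule takes the reverse pattern too, with 20.5% separated as higher in inferior retina and 17.2% as lower in superior retina. The share of all probe sets that meets the rule was not counted. The superior change of 0.17 had a 95% interval of -0.14 to 0.47, which includes 0. The difference between the responses, inferior minus superior, was -0.70 on the log2 scale (limma adjusted p = 0.673), so it did not pass the test of the difference. It lay between -0.89 and -0.51 over the alternatives, with adjusted p-values between 0.418 and 0.998.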

How the results depend on the processing

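Members called after adjustment numbered 0 in each comparison. Between regions of hyperoxia-exposed retina and between regions on average the number became 1 (*Sst*) with arrays centred, dim probe sets left out, 1 symbol or a variance trend, and 0 to 1 with an array left out. For hyperoxia against control on average it became 2 (*Vip*, *Tac1*) with dim probe sets left out, 1 (*Vip*) with 1 symbol and 1 (*Tac1*) with a variance trend. Over all probe sets, calls with dim probe sets left out, with a variance trend, by the methods' t-test and with an array left out were 259, 374, 2 and 35 to 168 for hyperoxia inferior against control inferior retina (142 in the fit reported); 12, 21, 0 and 0 to 3 for the superior comparison (5); 270, 291, 2 and 56 to 156 for hyperoxia on average (164); 70, 84, 0 and 0 to 69 between regions after hyperoxia (40); 29, 44, 0 and 1 to 59 between regions on average (5); and 2, 3, 0 and 1 to 30 for the interaction (1). Between regions of control retina (0) they were 1 with arrays centred, 1 with 1 symbol and 0 to 53 with an array left out. Keeping 1 symbol gave 9 calls in the superior comparison and 18 between regions on average, where centring gave 14. Dim probe sets left out and 1 symbol mean fewer tests; the other causes were not tested.

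Same-numbered arrays deviated together with correlations of -0.02 to 0.14, so the numbers were not taken as pairs. With the replicate number as a block, calls over all probe sets were 2 between the superior groups, 25 between regions after hyperoxia and 1 between regions on average; *Glul* reached adjusted p = 0.0572 in inferior retina and 0.06 on average, and 0 members were called.

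With 1 array left out, the sign of a log2 difference turned, over these ranges, for hyperoxia against control in inferior retina (-0.12 to 0.38 for *Sst*, -0.12 to 0.057 for *Th*, -0.36 to 0.056 for *Gad1*), hyperoxia against control in superior retina (-0.12 to 0.13 for *Slc6a9*, -0.12 to 0.020 for *Chat*, -0.20 to 0.016 for *Th*), inferior against superior control retina (-0.14 to 0.28 for *Gad1*), inferior against superior hyperoxia-exposed retina (-0.020 to 0.077 for *Chat*, -0.18 to 0.073 for *Slc6a9*), hyperoxia against control on average (-0.14 to 0.11 for *Sst*, -0.11 to 0.0078 for *Npy*, -0.47 to 0.0066 for *Mme*), inferior against superior retina on average (-0.044 to 0.15 for *Penk*, -0.027 to 0.098 for *Slc6a9*, -0.013 to 0.20 for *Gad1*) and the interaction (-0.20 to 0.15 for *Gad2*, -0.17 to 0.25 for *Gad1*, -0.046 to 0.17 for *Th*); no such difference had passed the test. The hyperoxia difference of *Slc6a9* in superior retina was -0.01 (-0.00897) with arrays centred on their medians. Averaging several probe sets of a gene gave no separate value, since each member has 1. The 2 arrays a group and signals of *Vip* and *Th* below the array medians limit what could be called.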

Other observations

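Other amacrine neuropeptides were measured in 12 of 12 cases, and limma called 0 of them in any comparison. *Tac2*, the neurokinin B precursor, came nearest. *Tac2* read 8.20 and 8.29 in hyperoxia inferior retina and 7.66 and 7.74 in hyperoxia superior retina (log2 signal). It was 8.66 and 8.42 in control inferior retina and 8.20 and 8.28 in control superior retina. Inferior arrays lay above superior arrays in both conditions, and hyperoxia arrays below control arrays in both regions. The average hyperoxia minus control difference of *Tac2* was -0.42 (SE 0.07, adjusted p = 0.0587, between 0.0172 and 0.323 over the alternatives and 0.0423 without control inferior replicate 2), and the average inferior minus superior difference was 0.43 (SE 0.07, adjusted p = 0.221). At an unadjusted p under 0.05, 1 gene of the 12 was higher and 2 were lower after hyperoxia on average, where 4.96% of all probe sets were higher and 4.02% lower.

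The genes whose log2 signals ran most like those of *Sst* over the 8 arrays were *Rab15* (Pearson's r 0.986), *Myl12a* (0.964) and *Lhfpl2* (0.959), picked from all genes with a single symbol, and the arrays share their 4 groups. Their average inferior minus superior differences were 0.22, 0.22 and 0.19, all smaller than that of *Sst*.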
